A study of Mus musculus with 15 samples.

Results

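The response of naïve CD8+ T cells to 24 h of T cell receptor (TCR) activation was described from 6 of the 15 RNA sequencing libraries of the series, namely the 3 libraries of naïve cells and the 3 of TCR activated cells, which were chosen by the group headings over the columns of the deposited table. All 11262 mRNA of that table were compared, and the account below goes to gene classes other than the cell cycle, ribosome biogenesis and secreted cytokines. The cells came from female LCMV-P14 TCR transgenic mice aged 9 to 13 weeks, whose CD8+ T cells carry a receptor for the gp33–41 peptide of lymphocytic choriomeningitis virus, so that a whole population answers the same antigen. Lymph nodes of 3 mice were pooled for each replicate, and each pool was split between the conditions. Naïve cells were sorted ex vivo as live TCRβ+ CD8+ cells with a naïve surface phenotype that included low CD44. Activated cells were cultured from the unsorted node suspension for 24 h with gp33–41 at 100 ng/ml, IL-2 at 20 ng/ml and IL-12 at 2 ng/ml, after which live CD8+ cells were sorted. The gates thus differed, and for CD44 and the other gated markers the effect of the gate and of activation cannot be told apart. The same holds for any mRNA whose level differs between naïve cells and the CD8+ cells that the naïve gate left out. Peptide, IL-2, IL-12, the time in culture and DMSO, named as the vehicle control, were likewise shared by every activated library and cannot be told apart.

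A naïve T cell is a small, quiescent cell that moves between blood and lymph nodes, which it enters with the help of CCR7 and leaves through a receptor for sphingosine 1-phosphate, and it is kept alive by IL-7 and contacts with self peptides. Engagement of its receptor starts signals through kinases, calcium, RAS and PI3K that turn off the factors of quiescence. The cell then grows, which calls for protein synthesis, folding, mitochondria, lipids and nucleotides, and begins to build the weapons of a killer cell.

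The authors deposited FPKM (fragments per kilobase of exon, scaled to library size), made from TMM-normalised counts, and blank cells were read as 0. FPKM is a relative measure per length, so that levels can be compared between genes but RNA per cell was not measured, and fewer cells of a type and less RNA per cell cannot be told apart in bulk samples. Changes are given as log2 fold changes, activated minus naïve, on the scale log2(FPKM + 0.1), as value ± standard error (SE) of a limma fit, with n = 3 libraries in each group. Means of FPKM are given ± SD over the same 3 libraries. This scale understates the change of mRNA with low FPKM. An mRNA was called changed, and is said to have risen or fallen, at a Benjamini-Hochberg adjusted p under 0.05 and a change of more than 2-fold. By this rule 48.7% of all mRNA changed, 25% rose and 23.7% fell, and in 80.7% of all mRNA the 3 activated libraries did not overlap the 3 naïve ones. The median log2 fold change over all mRNA was 0.01. Counts of a gene class are to be read against these shares.

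The labelled cell type was checked by its markers. The 6 T cell markers Cd3d, Cd3e, Cd3g, Cd8a, Cd8b1 and Lck summed to between 3699 and 4041 FPKM in the naïve libraries and to between 841.7 and 878.9 FPKM in the activated ones. Of 3 markers of CD4 T cells 2 were in the table, and their sum, nearly all of it Ctla4, which activated CD8+ T cells also express, went from between 0.18 and 0.69 to between 45.51 and 212.5 FPKM. Of 6 B cell markers, 5 were in the table, and their sum lay between 20.98 and 27 FPKM in naïve and between 4.92 and 7.82 FPKM in activated libraries. The monocyte marker Itgam was at 0.3 FPKM or less throughout, and Cd4 and the listed markers of dendritic cells, NK cells, granulocytes, erythroid cells and stroma were not among the mRNA analysed. An estimate from the spacing of low values put the depth at between 11200000 and 14400000 counted reads per library, at which 1 read on a gene of 2 kb is worth 0.035 to 0.045 FPKM. Replicates of a group had a Pearson r of at least 0.990 (naïve) and 0.983 (activated) across mRNA.

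**Figure D1:**
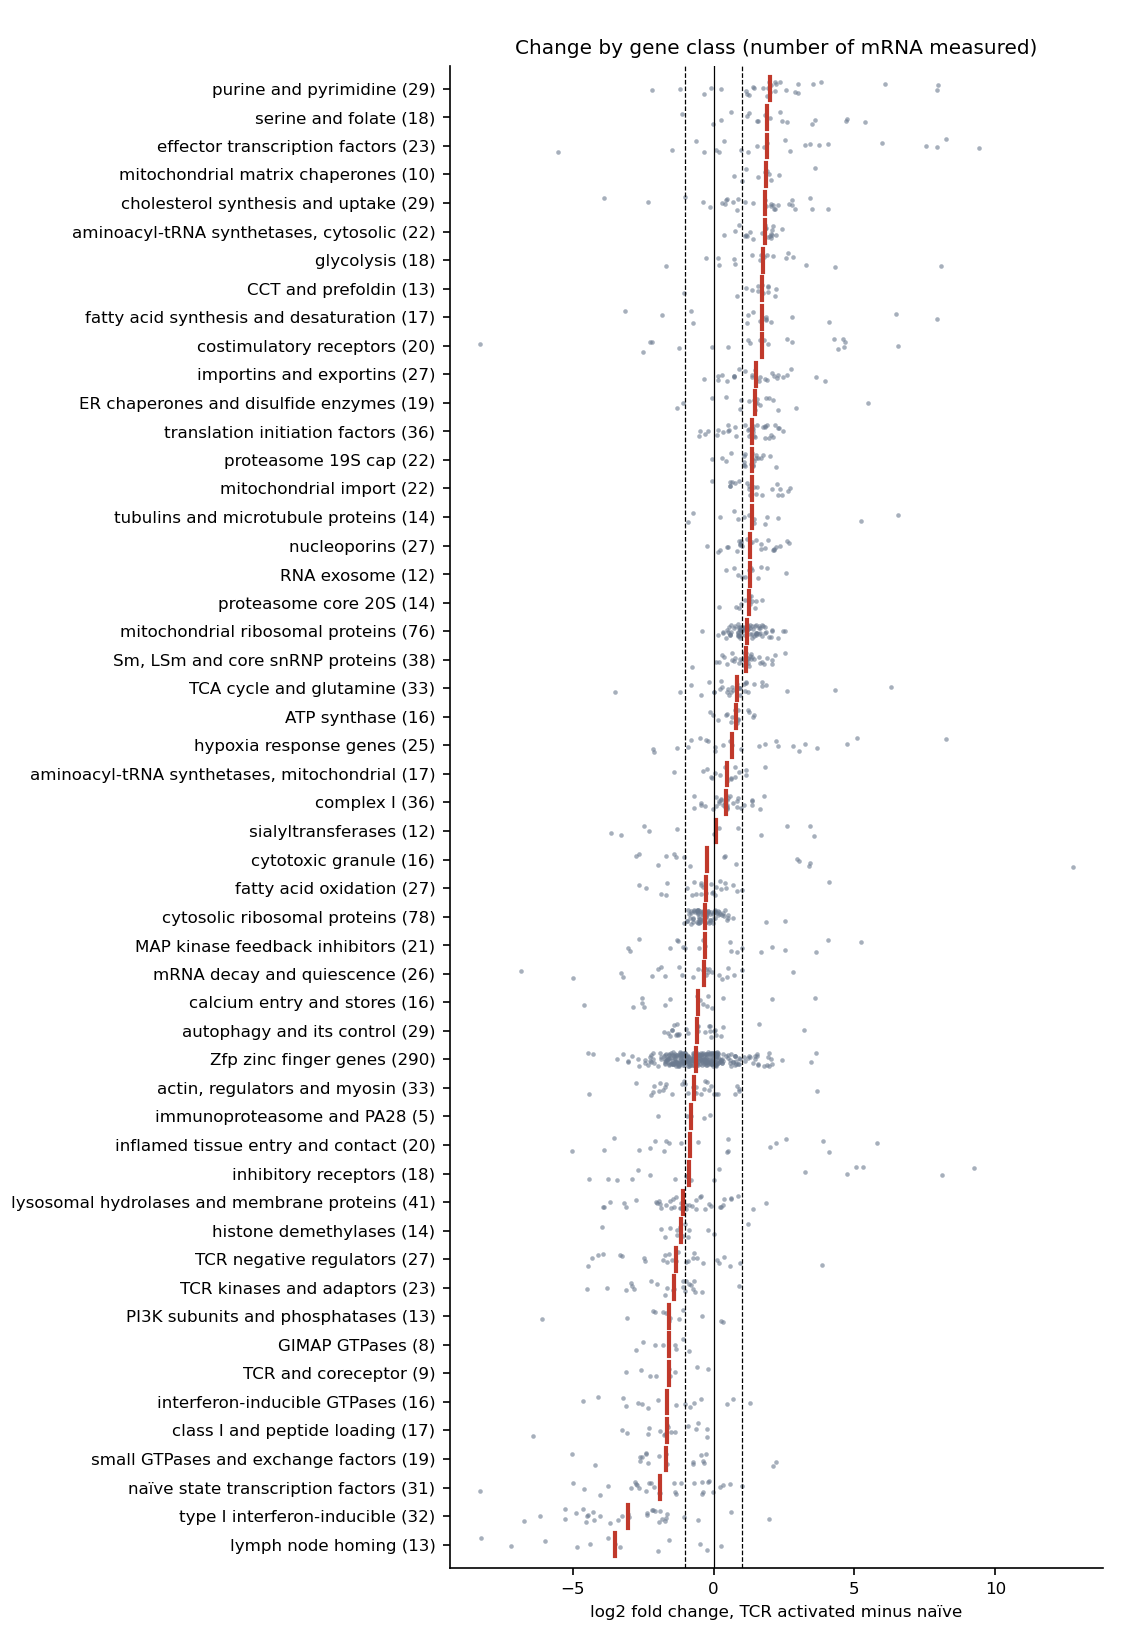
Log2 fold change (activated minus naïve) of the members of 52 gene classes, each point an mRNA, with the median of each class as a bar and the limits of a 2-fold change as broken lines. Classes are ordered by their median, from lymph node homing receptors at -3.50 to purine and pyrimidine genes at 2.02.

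The class with the lowest median was that of lymph node entry, egress and retention, a list that also holds the gut receptor gene Ccr9. Of 13 measured genes of lymph node entry, egress and retention, 10 fell and 0 rose, with a median log2 fold change of -3.50. Ccr9, the receptor that guides T cells to the gut, had 89.3, 89.3 and 89.5 FPKM in the naïve libraries and 0.21, 0.11 and 0.28 FPKM in the activated ones, a log2 fold change of -8.26 ± 0.26. S1pr1, the receptor for sphingosine 1-phosphate through which T cells leave a node, had 207, 235 and 270.3 FPKM and then 5.44, 2.76 and 3.16 FPKM (-5.99 ± 0.32). In both genes every activated library lay far below every naïve one. Itgae, the αE chain that pairs with β7 integrin and binds E-cadherin, fell from a mean of 61.9 ± 1.13 to 0.347 ± 0.178 FPKM, and its partner Itgb7 fell from 345 ± 7.92 to 16.8 ± 3.92 FPKM. Not every member fell. Ccr7, the receptor for the chemokines of the T cell zone, had 174, 191 and 182 FPKM against 137, 123 and 133 FPKM (-0.48 ± 0.11) and was not called, nor was Cd69, the antagonist of S1PR1 at the membrane, with means of 51.8 ± 6.53 and 46.6 ± 20.9 FPKM.

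Receptors for entry to inflamed tissue and for contact with other cells moved both ways, with 6 of 20 higher and 10 lower. The integrin chains were split: Itgb3 fell from 21.7 ± 0.979 to 0.58 ± 0.07 FPKM and Itga4, the α4 chain of VLA-4, fell from 42.6 ± 4.72 to 3.58 ± 0.315 FPKM, whereas Itgb1, the β1 chain with which α4 pairs, rose from 24.6 ± 1.7 to 99.8 ± 1.86 FPKM. Cxcr6 fell from 60.3 ± 6.87 to 3.96 ± 0.658 FPKM. Cxcr3, the receptor for interferon-induced chemokines on effector cells, was not called (9.78 ± 0.437 and 6.67 ± 1.11 FPKM). Cd44, the hyaluronate receptor used in the gate, rose from 7.56 ± 0.46 to 45 ± 2.99 FPKM. Cd2, the adhesion receptor with the highest mean here, fell from 447 ± 13.7 to 116 ± 57.5 FPKM.

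Among killer lectin-like receptors the genes of a receptor pair went opposite ways. Klrd1 encodes CD94, which pairs with the NKG2 chains, and it had 142, 141 and 120.3 FPKM in naïve and 3.64, 3.8 and 3.38 FPKM in activated libraries (-5.18 ± 0.11). Klrc1, which encodes the inhibitory chain NKG2A, had no reads listed in the naïve libraries (0 FPKM) and 3.44, 4.01 and 1.45 FPKM in the activated ones. Klrk1, which encodes the activating receptor NKG2D, rose from 0.293 ± 0.146 to 12.7 ± 2.44 FPKM. The naïve and activated libraries did not overlap for any of these genes.

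The GIMAP GTPases, which support the survival of lymphocytes, were lower as a family: 7 of 8 fell and none rose, with a median of -1.58. Gimap8 had 125, 109 and 118 FPKM in naïve and 17.8, 17.9 and 16.7 FPKM in activated libraries (-2.74 ± 0.10), and Gimap3 fell from 378 ± 27.6 to 67.2 ± 2.77 FPKM. Gimap5, whose loss is known to deplete peripheral T cells, missed the 2-fold limit at -0.89 ± 0.09. These genes are close paralogs, and reads may have been split between them.

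Enzymes that finish surface glycans moved both ways. Of the 39 measured 17.9% rose and 33.3% fell, against 25% and 23.7% of all mRNA. Of 12 sialyltransferases 4 rose and 5 fell. St6gal1, which adds α2,6-linked sialic acid to N-glycans, had 82.2, 89 and 84 FPKM in naïve and 11.7, 6.44 and 4.18 FPKM in activated libraries (-3.62 ± 0.30). St3gal1, which caps core 1 O-glycans, fell from 44.1 ± 0.161 to 8.84 ± 0.608 FPKM. In the other direction, St6galnac4, which adds sialic acid to the core GalNAc of O-glycans, had 6.68, 7.44 and 7.58 FPKM and then 68.1, 81.3 and 88.2 FPKM (3.43 ± 0.10). In the O-glycan role 2 of 12 rose and 3 fell, and among N-glycan trimming and branching enzymes 1 of 15 rose and 5 fell.

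Costimulatory receptors rose in most cases, and inhibitory receptors moved both ways. Of 20 costimulatory genes 13 rose and 5 fell, and of 18 inhibitory genes 6 rose and 7 fell. Tnfrsf9, which encodes 4-1BB, had 1.49, 1.55 and 1.47 FPKM in naïve and 215, 174 and 89.5 FPKM in activated libraries (6.54 ± 0.35), and Tnfrsf4, which encodes OX40, rose from 4.58 ± 0.846 to 128 ± 62.8 FPKM. Cd7, an immunoglobulin superfamily receptor of resting T cells, went from 98.5, 103 and 122 FPKM to 0.34, 0.07 and 0.43 FPKM, among the largest falls in the table. Cd27, a receptor of the TNF family carried by naïve cells, fell from 277 ± 45.3 to 61.1 ± 13.4 FPKM while Cd28 rose from 34.2 ± 4.51 to 118 ± 18.3 FPKM.

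On the inhibitory side Lag3, a ligand of class II molecules, had 0.15, 0.11 and 0.16 FPKM in naïve and 221, 156 and 90.1 FPKM in activated libraries (9.25 ± 0.28). Pdcd1, which encodes PD-1, had 1.12, 0.81 and 1.02 FPKM and then 29, 38.2 and 39.5 FPKM, and Ctla4 had 0.08, 0.5 and 0.34 FPKM and then 212, 103 and 45.2 FPKM. Activated replicate 3 was the lowest of the activated libraries in Lag3 and Ctla4 alike, yet far above every naïve library. The inhibitory receptors of naïve cells fell at the same time: Cd96 went from a mean of 182 ± 14.8 to 13.8 ± 3.54 FPKM, Pecam1 from 60.6 ± 5.22 to 2.76 ± 0.647 FPKM, and 4632428N05Rik, the gene of VISTA, from 108 ± 6.61 to 9.94 ± 1.37 FPKM. Btla was not called (0.03 ± 0.09).

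**Figure D2:**
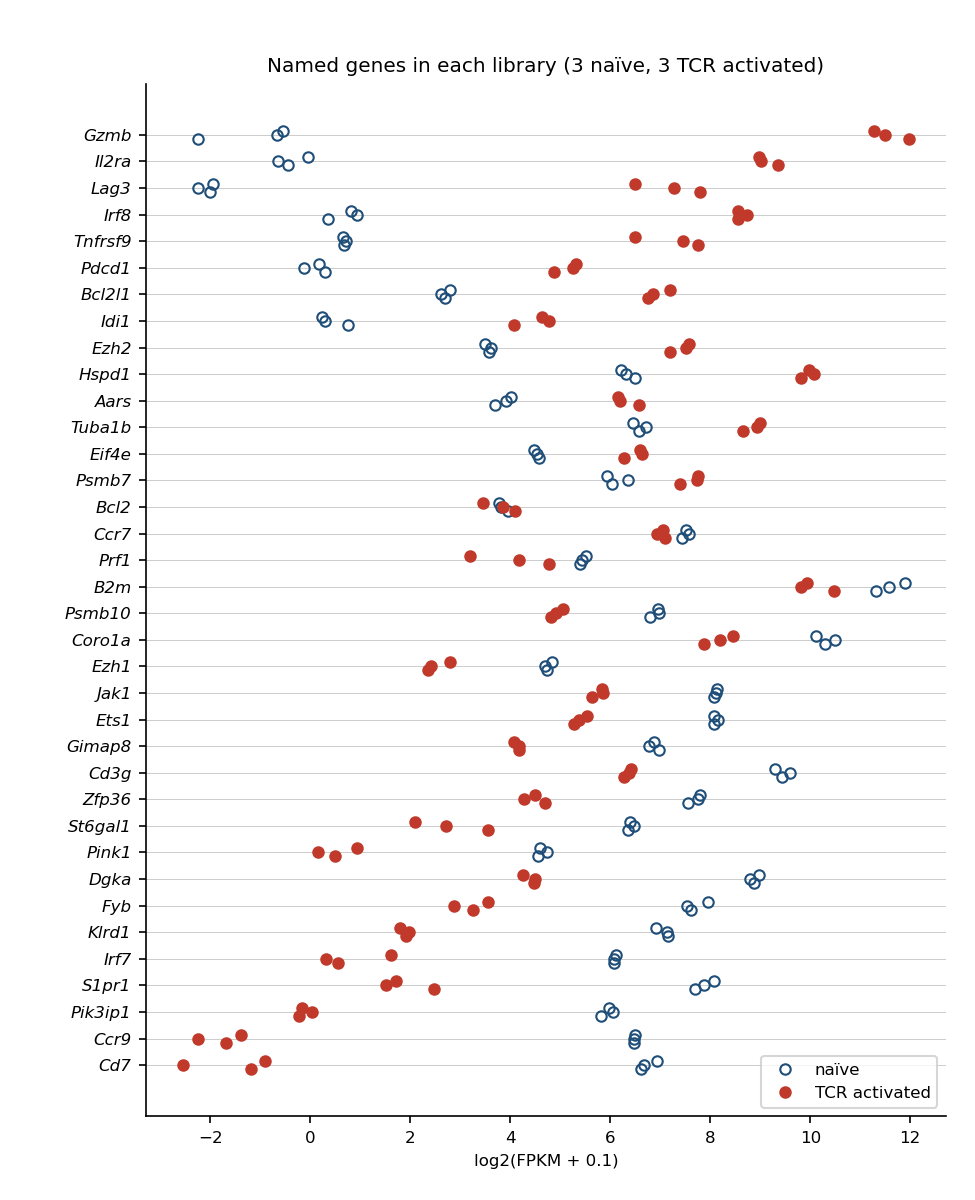
FPKM of 36 named genes in the 3 naïve (open circles) and 3 activated libraries (filled circles), as log2(FPKM + 0.1). The naïve and activated libraries lie apart in 35 of the 36 genes and overlap in Bcl2.

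Receptors for cytokines also moved both ways. Il2ra, which encodes the α chain that gives the IL-2 receptor its high affinity, had 0.63, 0.54 and 0.87 FPKM in naïve and 652, 517 and 501 FPKM in activated libraries (9.49 ± 0.15). Il2rb rose from 82.9 ± 9.35 to 256 ± 26.1 FPKM, but Il2rg, the chain shared by the receptors for IL-2, IL-7 and IL-15, had 611, 609 and 726 FPKM and then 255, 187 and 208 FPKM (-1.59 ± 0.12). Among 25 other cytokine and growth factor receptors 6 rose and 12 fell. Both chains of the receptor for IL-12, which was in the culture, rose, Il12rb2 from 4.05 ± 0.52 to 135 ± 43.4 FPKM and Il12rb1 from 6.04 ± 0.66 to 57.8 ± 8.27 FPKM. All chains of the interferon receptors that were measured fell: Ifngr1 from 64.6 ± 2.48 to 18.5 ± 4.88 FPKM, Ifngr2 from 27.3 ± 0.971 to 2.57 ± 0.503 FPKM, Ifnar1 from 29.1 ± 0.21 to 7.87 ± 0.717 FPKM and Ifnar2 from 27.6 ± 1.26 to 9.71 ± 1.03 FPKM. Tgfbr2, the ligand-binding receptor for TGF-β, fell from 115 ± 6.75 to 10.5 ± 0.215 FPKM. Downstream, Jak1, the kinase bound by most of these receptors, had 271, 276 and 279 FPKM and then 49.5, 58.1 and 56.8 FPKM (-2.33 ± 0.08), while Stat5a rose from 27.9 ± 2.88 to 109 ± 7.99 FPKM and the feedback inhibitor Cish from 1.86 ± 0.275 to 88.6 ± 5.46 FPKM.

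The machinery that reads antigen was lower at 24 h. Of 9 genes of the receptor and coreceptor, 7 fell and none rose (median -1.59). Cd3g, a signalling chain of the receptor complex, had 695, 778 and 632 FPKM in naïve and 77.2, 82.9 and 84.6 FPKM in activated libraries (-3.10 ± 0.10). Cd8b1 fell from 1246 ± 126 to 209.8 ± 24.1 FPKM and Cd8a from 543 ± 13.5 to 181 ± 12.3 FPKM. Cd5 and Cd6, which dampen receptor signals, were not called, at -0.58 and -0.20.

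Of 23 proximal kinases and adaptors 15 fell and 0 rose, or 1 without naïve replicate 2 or without activated replicate 1. Fyb, the adaptor ADAP that links the receptor to integrins, had 197, 186 and 247 FPKM and then 9.46, 7.27 and 11.6 FPKM (-4.47 ± 0.26). Lck, the kinase that starts receptor signalling, had 509, 559 and 529 FPKM and then 194, 198 and 205 FPKM (-1.42 ± 0.07). Rasgrp1, the activator of RAS, fell from 101 ± 3.85 to 11.6 ± 1.56 FPKM. Zap70, Vav1 and Fyn had lower means but missed the 2-fold limit, at -0.86, -0.96 and -0.69, and Vav1 passed it without activated replicate 2 and under scaling to summed FPKM, at -1.03 in both.

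Brakes on receptor signalling fell as well. Of 27 negative regulators 15 fell and 1 rose. Dgka, the diacylglycerol kinase that removes the activator of RASGRP1, had 467, 442 and 502 FPKM in naïve and 22.2, 22.4 and 19 FPKM in activated libraries (-4.46 ± 0.11). Rasa3, which switches off RAS and RAP1, fell from 149.7 ± 8 to 7.46 ± 1.01 FPKM, and the adaptor Sit1 from 65 ± 3.67 to 3.67 ± 0.396 FPKM. The exception was Ptprj, the phosphatase CD148, which rose from 0.393 ± 0.0379 to 7.05 ± 1.73 FPKM. Cblb, the ubiquitin ligase that sets the threshold of activation, was not called (0.93 ± 0.18), but was called higher without activated replicate 3, at 1.16, and under median scaling, at 1.01.

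For calcium, 7 of 16 genes of entry and stores fell and 2 rose. Orai2, a pore subunit, had 99.5, 88.2 and 99.2 FPKM and then 3.02, 3.6 and 5.41 FPKM (-4.58 ± 0.20), whereas Orai1, the main pore subunit in T cells, was not called (22.2 ± 3.6 and 18.9 ± 2.73 FPKM). The pumps changed places: Atp2a3, the SERCA3 pump, fell from 155 ± 7.78 to 28 ± 5.54 FPKM and Atp2a2, the SERCA2 pump, rose from 28.2 ± 2.38 to 120.0 ± 8 FPKM. Kcna3, the voltage-gated potassium channel Kv1.3, fell from 25 ± 4.47 to 7.04 ± 0.72 FPKM, Kcna2 from 7.66 ± 0.539 to 0.0467 ± 0.0306 FPKM, and Kcnk5, a background potassium channel, rose from 0.07 ± 0.02 to 8.01 ± 0.929 FPKM. Of 11 NFAT and calcineurin genes, 2 fell, among them Ppp3ca, a catalytic subunit of calcineurin (23.1 ± 1.74 to 6.48 ± 0.889 FPKM), and none rose.

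Feedback inhibitors of MAP kinases were divided, with 6 of 21 higher and 8 lower. Dusp6, a phosphatase for ERK in the cytoplasm, had 27.7, 29.6 and 23 FPKM in naïve and 2.86, 3.04 and 3.68 FPKM in activated libraries (-3.03 ± 0.16), while the nuclear phosphatases Dusp4 and Dusp5 rose from 0.483 ± 0.284 to 20.7 ± 4.45 and from 8.58 ± 1.26 to 36.4 ± 4.02 FPKM. Spry1, a Sprouty inhibitor of RAS signalling, rose from 0.713 ± 0.24 to 13 ± 0.884 FPKM.

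In the PI3K pathway 10 of 13 subunits and lipid phosphatases fell and none rose (median -1.58). Pik3ip1, an inhibitor of PI3K at the membrane, had 55.9, 66.7 and 62.6 FPKM in naïve and 0.75, 0.92 and 0.79 FPKM in activated libraries (-6.07 ± 0.29). Pik3cd, which encodes the catalytic subunit p110δ, had 207, 185 and 212 FPKM and then 84.1, 93.9 and 109 FPKM (-1.08 ± 0.12), so that its libraries did not overlap, but it missed the 2-fold limit without activated replicate 1, at -0.99, and under median scaling, at -0.99. Pik3r1, the regulatory subunit p85α, also fell from 33.2 ± 3.23 to 7.47 ± 0.562 FPKM. Inpp5d, which encodes SHIP-1, a phosphatase that opposes PI3K, fell too, from 41 ± 2.95 to 11.7 ± 0.374 FPKM. All 3 FOXO factors, the targets that AKT keeps out of the nucleus, fell: Foxo1 from 79.6 ± 2.57 to 16.7 ± 1.56 FPKM, Foxo3 from 17 ± 2.8 to 6.29 ± 0.531 FPKM and Foxo4, close to the 2-fold limit, from 12.1 ± 0.65 to 5.98 ± 0.491 FPKM. Without naïve replicate 1 or activated replicate 1 Foxo4 was at -0.96 or -0.93 and was not called, nor was it with a pseudocount of 1 (-0.91) or under median scaling (-0.92). Among AKT, mTOR and TSC genes 2 of 28 rose, 4 without naïve replicate 3, and 6 fell. Rictor, the defining subunit of mTORC2, fell from 23.9 ± 3.43 to 5.46 ± 0.524 FPKM, while Mtor and Rptor were not called (0.54 and 0.06).

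Interferon-inducible genes were measured in naïve cells without added interferon and were lower after activation. Of 32 type I interferon-inducible genes 29 fell and 1 rose, with a median of -3.03. Irf7, the factor that amplifies the type I response, had 67.2, 67.5 and 69.2 FPKM in naïve and 1.36, 1.14 and 2.96 FPKM in activated libraries (-5.27 ± 0.28). Ddx58, which encodes the RNA sensor RIG-I, had 47.6, 42.5 and 48.3 FPKM and then 0.98, 0.87 and 1.56 FPKM (-5.26 ± 0.24), and Ifi203, a DNA-binding PYHIN protein with close paralogs, fell from 108 ± 7.72 to 1.23 ± 1.22 FPKM (-6.73 ± 0.64, and -7.44 without activated replicate 3). The member that rose was Ly6a, which encodes Sca-1 (39.9 ± 6.9 to 158 ± 24.6 FPKM), and Bst2 and Ifi35 were not called. Interferon-inducible GTPases followed, with 10 of 16 lower and 1 higher. Gbp8 fell from 43 ± 4.56 to 1.74 ± 0.671 FPKM, while Gbp5 rose from 10.1 ± 1.7 to 24.8 ± 4.94 FPKM and Igtp was not called (0.70 ± 0.11). Ifng itself had 1949.8, 2290.0 and 2299 FPKM in the activated libraries.

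Genes of class I antigen presentation were lower as well. Of 17 genes 12 fell and none rose, and the summed FPKM of the class went from a mean of 7296 in naïve to 2660 in activated cells. B2m, the invariant chain of class I, had 2549, 3040.2 and 3835 FPKM and then 1417, 905 and 974 FPKM (-1.52 ± 0.19), and H2-K1 fell from 1628 ± 44.2 to 536 ± 98 FPKM. Nlrc5, the transactivator of class I genes, fell from 67.4 ± 3.99 to 19.8 ± 2.92 FPKM, Tapbp, which encodes tapasin, from 174 ± 6.3 to 35.7 ± 11.6 FPKM, and Cd1d1, which presents lipids to NKT cells, from 22.3 ± 1.96 to 0.207 ± 0.201 FPKM. Tap1 was not called (-0.56 ± 0.10). Class I heavy chain genes are near copies of each other, and reads may have been split between them. Of 8 class II genes, which B cells and other presenting cells carry, 3 fell and 0 rose, or 2 rose without naïve replicate 2. The summed B cell markers given above were lower in every activated library, and their part in the class II values was not tested.

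The proteasome divided by kind. Of 14 subunits of the 20S core 10 rose and of 22 subunits of the 19S cap 18 rose, with none lower in either. Of the 5 measured genes of the immunoproteasome and its activator PA28, 1 fell (20%, against 23.7% of all mRNA) and none rose. Psmb10, the immunoproteasome subunit that takes the place of Psmb7, had 111, 125 and 123 FPKM in naïve and 27.9, 29.9 and 33.2 FPKM in activated libraries (-1.98 ± 0.12), and Psmb7 had 65, 81.3 and 61.2 FPKM and then 168, 212 and 216 FPKM (1.52 ± 0.12). The same direction was seen in the other pairs: Psmb8 had a log2 fold change of -0.81 ± 0.15 beside 1.24 ± 0.10 for Psmb5, and Psmb9 of -0.93 ± 0.11 beside 1.27 ± 0.08 for Psmb6. Psmb8 and Psmb9 missed the 2-fold limit, though Psmb9 passed it without naïve replicate 1 (-1.02).

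Transcription factors of the naïve state fell in 20 of 31 cases. Besides Klf2 and Tcf7, Ets1, an ETS factor needed for T cell homeostasis, had 269, 285 and 268 FPKM in naïve and 38.7, 41.2 and 46.5 FPKM in activated libraries (-2.70 ± 0.08). Lef1, the partner of TCF1, fell from 171 ± 41.3 to 32.4 ± 4.7 FPKM, Gata3 from 14 ± 3.12 to 0.36 ± 0.184 FPKM, and Bcl11b, a factor of T cell identity, from 47.6 ± 3.45 to 11 ± 1.21 FPKM. Foxp1, Bach2, Zeb1 and Satb1, which are also known to hold T cells in the naïve state, were not called, at -0.38, 0.24, -0.40 and -0.15.

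Of 23 factors of the effector state 15 rose and 2 fell. Batf3, a partner of JUN at AP-1 sites, was listed at 0 in the naïve libraries and had 89.2, 55.6 and 65 FPKM in the activated ones. Irf8 had 1.17, 1.82 and 1.65 FPKM and then 378, 427 and 377 FPKM (7.92 ± 0.16), and Bhlhe40, a repressor needed for T cell cytokine output, had 0.12, 0.41 and 0.26 FPKM and then 132, 92.2 and 93.3 FPKM. Zbtb32, a zinc finger repressor and among the 10 largest rises of all mRNA, was listed at 0 in naïve cells and at 235, 193 and 176 FPKM after activation. In contrast Runx3 and Id2, factors of the CD8 lineage and of effector fate, were not called (-0.33 and 0.10).

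Immediate-early factors differed among themselves at 24 h. Fos varied within the naïve group, with 52.5, 170.2 and 37 FPKM, and stood at 2.98, 2.91 and 4.53 FPKM in activated libraries (-4.31 ± 0.45, and -3.66 without naïve replicate 2). Egr1 and Junb were not called (0.02 ± 0.18 and -0.15 ± 0.23). Nr4a1, a nuclear receptor induced by TCR signals, rose from 10.5 ± 1.73 to 51 ± 25.3 FPKM and Atf3 was listed at 0 before and at 27.5, 17.8 and 20.6 FPKM after. In the NF-κB family Nfkb1 and Nfkb2, the precursors of p50 and p52, rose from 75.1 ± 3.27 to 254 ± 21.3 and from 25.6 ± 2.75 to 92.8 ± 1.41 FPKM, while Rela was not called (-0.50 ± 0.12). In the MYC network Mxd4, which competes with MYC for MAX, had 36.6, 26.1 and 34.7 FPKM in naïve and 0.48, 0.29 and 0.45 FPKM in activated libraries (-6.01 ± 0.19).

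Chromatin genes moved by enzyme class. Of 14 histone demethylases 9 fell and 1 rose, the exception being Kdm2b (9.03 ± 0.772 to 21.1 ± 2.44 FPKM). Jhdm1d, an H3K9 and H3K27 demethylase, fell from 19.2 ± 1.77 to 1.14 ± 0.177 FPKM and Kdm2a from 46.5 ± 7.83 to 13.9 ± 1.75 FPKM. The TET enzymes, which oxidise methylcytosine, fell, with Tet1 at -3.78, and Tet2 at -1.03 and Tet3 at -1.02 close to the 2-fold limit. Tet2 and Tet3 missed that limit without naïve replicate 1 (-0.93 and -0.94), without naïve replicate 3 (-0.92 and -0.91) and without activated replicate 2 (-0.88 and -0.96), and also without activated replicate 3 (Tet2 -0.96). They missed it too under median scaling (-0.95 and -0.93) and with a pseudocount of 1 (-0.84 and -0.95). Uhrf1, which brings the maintenance methylase to replicated DNA, had 4.58, 3.89 and 4.85 FPKM and then 157, 191 and 185 FPKM (5.29 ± 0.10), and Dnmt1 rose from 45.9 ± 6.33 to 123 ± 7.37 FPKM. The catalytic subunits of PRC2 were exchanged: Ezh2 had 11.8, 12.1 and 11.2 FPKM and then 145, 182 and 189.7 FPKM (3.86 ± 0.10), and Ezh1 had 26.6, 25.7 and 28.5 FPKM and then 5.03, 5.2 and 6.79 FPKM (-2.24 ± 0.14). The remodelling ATPases Smarca2 and Chd3 fell from 41.8 ± 4.08 to 3.5 ± 0.356 and from 134 ± 11.9 to 21.2 ± 0.31 FPKM, while Smarca4 and Chd4, their paralogs, were not called (0.63 and 0.04). Of 21 histone acetylases and deacetylases 7 fell, including the coactivators Crebbp and Ep300 (-1.59 and -1.14), and 2 rose.

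Genes with a Zfp symbol, most of which encode zinc finger proteins of the KRAB and related kinds, were mostly not called, and more fell than rose. Of 290 measured, 101 fell and 22 rose, with a median of -0.62. Many are near copies with low FPKM, for which the log2 scale understates change. Of 17 circadian clock genes 4 fell and 1 rose, no larger a share than of all mRNA. Dbp, an output factor, fell from 10.3 ± 0.414 to 1.98 ± 0.638 FPKM and Arntl, which encodes BMAL1, from 10.7 ± 0.168 to 2.59 ± 0.23 FPKM, whereas Npas2, at 0.13, 0.21 and 0.15 FPKM in the activated libraries, rose (not with a pseudocount of 1, at 0.19) and the Per and Cry genes were not called. The nuclear RNAs Malat1 and Neat1 fell from 76 ± 26 to 9.06 ± 2.87 and from 56.9 ± 12.6 to 5.66 ± 3.32 FPKM, while host genes of snoRNAs rose in 6 of 9 cases, led by Snhg3 (24 ± 0.982 to 142 ± 26.7 FPKM).

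Genes from splicing to nuclear transport rose in most classes. Of 38 Sm, LSm and core snRNP proteins 26 rose and 0 fell (median 1.16). Snrpd1, an Sm protein, had 36.2, 44.5 and 34.4 FPKM in naïve and 211, 224 and 223 FPKM in activated libraries (2.52 ± 0.10). Regulators of splice choice were mixed, with 13 of 42 SR proteins and hnRNPs higher and 4 lower, among the latter Mbnl1 and the kinase Clk1 (198 ± 5.67 to 85.1 ± 8.7 and 78 ± 5.25 to 28.5 ± 6.49 FPKM). The RNA exosome, which degrades and trims RNA, rose in 9 of 12 cases, led by its nuclease Dis3 (12.2 ± 1.13 to 72.5 ± 7.04 FPKM). Of 27 importins, exportins and RAN regulators 18 rose and none fell. Kpna2, which encodes importin α1, had 12.3, 11 and 13.3 FPKM and then 193, 195 and 176 FPKM (3.94 ± 0.10), and Rcc1, the exchange factor for RAN, rose from 10.7 ± 0.885 to 135 ± 14.6 FPKM. Of 27 nucleoporins 16 rose and none fell. Nup210, the nucleoporin of the highest level, was not called (111 ± 8.82 and 96 ± 15 FPKM).

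Among factors that shorten or lengthen mRNA life or hold cells at rest, more fell than rose and most were not called. Of 26 genes of deadenylation, AU-rich decay and quiescence, 10 fell and 2 rose (median -0.34). Those that rose were Pabpc4, a poly(A) binding protein, and Elavl1, which encodes HuR, a protein that stabilises AU-rich mRNA (2.81 ± 0.07 and 1.01 ± 0.10). Elavl1 lay at the 2-fold limit and missed it without naïve replicate 2 (0.98), naïve replicate 3 or activated replicate 2 (0.93), with a pseudocount of 1 (0.98) and under scaling to summed FPKM (0.94). Zfp36, which encodes tristetraprolin, a protein that destroys cytokine mRNA, had 189, 215 and 221 FPKM in naïve and 25.6, 19.1 and 22.4 FPKM in activated libraries (-3.22 ± 0.11). Btg1 and Btg2, which recruit deadenylases and keep T cells quiescent, fell from 118 ± 22.1 to 25.7 ± 2.9 and from 88.1 ± 10.5 to 9.09 ± 2.29 FPKM. Slfn5, a Schlafen gene, fell from 45 ± 5.49 to 0.323 ± 0.205 FPKM, while Slfn2, whose loss breaks quiescence, was not called (-0.37 ± 0.17). The subunits of the CCR4-NOT deadenylase were not called.

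Most initiation factors rose, while most ribosomal proteins were not called. Of 78 cytosolic ribosomal proteins, 2 rose and 1 fell, with a median of -0.29, and the number that fell was 3 without naïve replicate 1 and 0 without naïve replicate 2. Their share of the summed FPKM was 23.8%, 27.3% and 23.7% in the naïve libraries and 18.4%, 18.8% and 20.4% in the activated ones. An exact permutation test on both sides gave p = 0.1, which is the lowest value possible with 3 libraries against 3. Rplp1, a stalk protein, had 4214, 5135 and 5041 FPKM in naïve and 3174, 2869 and 3459 FPKM in activated libraries (-0.60 ± 0.13) and was not called. The pair that rose, Rpl30 and Rpl34, had means of 2.97 ± 0.355 and 3.36 ± 1.1 FPKM in naïve cells where all but 3 of the class had at least 182.2 FPKM, so that these genes, with near-identical copies elsewhere, are uncertain. Of 36 initiation factors 24 rose and none fell. Eif4e, which binds the mRNA cap, had 23.8, 23 and 22.2 FPKM and then 77, 99.2 and 95.9 FPKM (1.97 ± 0.10), and Eif5a, the factor modified with hypusine, rose from 246 ± 16.9 to 1346 ± 55.7 FPKM. Eef1a1, the elongation factor that brings tRNA to the ribosome and among the most abundant mRNA, was not called (9211 ± 1221 and 6401 ± 241 FPKM). Among repressors of translation Eif4ebp1, the inhibitor of eIF4E, rose from 4.64 ± 0.603 to 61.2 ± 34.1 FPKM, whereas Eif4ebp2, its paralog, was not called (109 ± 15.2 and 99.7 ± 9.07 FPKM).

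The enzymes that charge tRNA split by compartment. Of 22 cytosolic aminoacyl-tRNA synthetase genes 19 rose and none fell (median 1.82), and of 17 mitochondrial ones 3 rose and 1 fell (median 0.48). Aars, the cytosolic alanine enzyme, had 12.8, 14.9 and 16 FPKM in naïve and 95.7, 72.7 and 71 FPKM in activated libraries (2.44 ± 0.13). Iars and Gars, for isoleucine and glycine, rose from 27.1 ± 1.74 to 126 ± 14.3 and from 55.6 ± 4.98 to 230.2 ± 6.79 FPKM. Of the mitochondrial set Yars2 rose from 10.3 ± 2.62 to 36.2 ± 4.05 FPKM, Lars2 was not called (-0.24 ± 0.32) and Ears2 fell from 10.4 ± 0.927 to 3.9 ± 0.289 FPKM. In the RNA polymerase III system the repressor Maf1 fell from 79.8 ± 5.19 to 17.5 ± 1.69 FPKM. The paralogous subunits of the enzyme changed places, Polr3gl falling from 25.8 ± 5.93 to 5.71 ± 1.44 FPKM and Polr3g rising from 4.66 ± 0.27 to 18.1 ± 2.02 FPKM. Nsun2, which methylates cytosines of tRNA, rose from 44.1 ± 2.68 to 199 ± 27.9 FPKM.

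Several genes known as targets of the amino acid response factor ATF4 rose with them. Asns, asparagine synthetase, had 0, 0.04 and 0.04 FPKM in naïve and 27.8, 8.97 and 9.98 FPKM in activated libraries (6.77 ± 0.41). Pycr1, which makes proline, rose from 0.117 ± 0.0208 to 2.01 ± 0.801 FPKM, Atf4 itself from 107 ± 12.8 to 285 ± 77 FPKM, and Chac1, which degrades glutathione, was listed at 0 before and at 6.17, 1.57 and 1.98 FPKM after. Ddit3, which encodes CHOP and is a further target, fell from 18.2 ± 3.05 to 4.81 ± 1.76 FPKM. Of the 17 genes listed for asparagine, proline, polyamines and ATF4, 12 rose and none fell. Ddit3 was counted with the unfolded protein response and not among them.

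The letters TGATGNAA, which ATF4 with a C/EBP partner is known to bind and which were searched on both strands, were found in the RefSeq promoter windows (250 bases before to 50 after a start, GRCm38.p6, the build mm10) of 5 of 15 matched cytosolic synthetases and of 0 of 14 matched mitochondrial ones. They were in a window of 4 of 13 matched genes of the asparagine, proline, polyamine and ATF4 class and of 2.59% of the 8405 matched mRNA. A gene with several starts was counted if any of its windows held a match. Counted by single window and not by gene, the share was 3.91% of all 32544 RefSeq windows searched. The asparagine, proline, polyamine and ATF4 class was listed in part by known ATF4 targets. Its share of matches thus describes the list and not the response to activation. A match is a description and not a shown site of binding. So that the matches can be compared, 60 bases around each are printed for 3 synthetases and 3 genes of amino acid metabolism, in the direction of the gene, with the match on either strand in capitals.
Aars: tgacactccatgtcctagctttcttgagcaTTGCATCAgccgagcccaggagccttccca
Gars: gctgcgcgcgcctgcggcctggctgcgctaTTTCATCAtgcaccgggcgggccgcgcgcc
Tars: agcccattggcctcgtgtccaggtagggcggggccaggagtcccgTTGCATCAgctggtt
Asns: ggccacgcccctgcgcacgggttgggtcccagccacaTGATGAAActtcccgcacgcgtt
Pycr1: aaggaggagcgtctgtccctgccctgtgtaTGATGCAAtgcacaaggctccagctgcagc
Chac1: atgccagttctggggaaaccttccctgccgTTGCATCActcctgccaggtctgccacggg
The stretch of Aars lies at chr8:111033700-111033759 on the plus strand of GRCm38.p6 and ends 82 bases before the start. The stretch of Gars lies at chr6:55037941-55038000 on the plus strand of GRCm38.p6 and ends at the start. The stretch of Tars lies at chr15:11399659-11399718 on the minus strand of GRCm38.p6 and ends at the start. The stretch of Asns lies at chr6:7693210-7693269 on the minus strand of GRCm38.p6 and ends at the start. The stretch of Pycr1 lies at chr11:120643822-120643881 on the minus strand of GRCm38.p6 and ends 73 bases before the start. The stretch of Chac1 lies at chr2:119351019-119351078 on the plus strand of GRCm38.p6 and ends 163 bases before the start.
Tars, the threonine enzyme, rose from 28.9 ± 0.527 to 104 ± 9.45 FPKM. All 6 genes printed were higher after activation, as were synthetases whose windows hold no match, such as Kars, for lysine (69.5 ± 4.22 to 284 ± 14.2 FPKM).

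Chaperone genes rose in the cytosol, the endoplasmic reticulum and the mitochondrial matrix. Of 13 CCT and prefoldin subunits, which fold actin and tubulin, 11 rose. Tcp1 had 106, 111 and 95 FPKM in naïve and 423, 509.6 and 517 FPKM in activated libraries (2.21 ± 0.10). Hsp90aa1, the inducible cytosolic HSP90, rose from 87.5 ± 10.3 to 775 ± 110.4 FPKM and the constitutive Hsp90ab1 from 789.7 ± 9.52 to 3122 ± 100.1 FPKM. The stress-inducible Hspa1b fell instead, from 9.91 ± 7.15 to 0.433 ± 0.203 FPKM (-3.79 ± 0.66, and -4.79 without naïve replicate 3). In the endoplasmic reticulum 13 of 19 chaperones and disulfide enzymes rose and 2 fell. Hspa5, which encodes BiP, had 139, 134 and 102 FPKM and then 518, 509.7 and 422 FPKM (1.96 ± 0.14), the lowest activated value being in replicate 3. Of 11 genes of the unfolded protein response and ER degradation 3 rose and 1 fell (median -0.01), a share of rises close to that of all mRNA. The sensor Atf6 rose from 3.05 ± 0.363 to 12.6 ± 1.83 FPKM and the factor Xbp1 from 20.8 ± 0.416 to 56 ± 14.7 FPKM. The oligosaccharyltransferase, which starts N-glycans, rose in 2 of 11 subunits, and in 5 without activated replicate 3.

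Mitochondrial classes differed from each other. Import of proteins (15 of 22 higher, none lower), matrix chaperones and proteases (9 of 10 higher) and mitochondrial ribosomal proteins (45 of 76 higher, none lower) rose in most members. Hspd1, the matrix chaperonin HSP60, had 89.9, 79.8 and 74.4 FPKM in naïve and 896, 1072 and 1013 FPKM in activated libraries (3.61 ± 0.10), and Tomm40, the pore of the outer membrane, rose from 28.8 ± 0.952 to 180.0 ± 7.42 FPKM. Nuclear-encoded subunits of oxidative phosphorylation rose in 20 of 77 cases (26%, against 25% of all mRNA). They fell in 1 (1.3%, against 23.7% of all mRNA), with a median of 0.59. In complex I 6 of 36 rose, in complex III 6 of 9, in cytochrome c and complex IV 3 of 12, and in ATP synthase 4 of 16. Cycs, cytochrome c, had 10.6, 10.8 and 9.45 FPKM and then 54.8, 59.5 and 54.8 FPKM (2.44 ± 0.09). The subunit that fell was Cox7a2l, a factor of supercomplexes, with 277, 362 and 335 FPKM and then 83.2, 70.9 and 78.1 FPKM (-2.06 ± 0.11). Tfam, the packaging factor of mitochondrial DNA, was not called (0.61 ± 0.14).

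Genes of mitophagy moved apart. Pink1, the kinase that marks damaged mitochondria, had 23.2, 26.5 and 24 FPKM in naïve and 1.3, 1.01 and 1.8 FPKM in activated libraries (-4.10 ± 0.20). Bnip3l, a mitophagy receptor, fell from 44.5 ± 4.87 to 13.3 ± 6.61 FPKM, while its homolog Bnip3 rose from 1.91 ± 0.364 to 12.6 ± 9.76 FPKM and Mtfp1, a fission factor, from 1.28 ± 0.01 to 15.1 ± 0.847 FPKM. Bnip3 was at 1.57 (log2 fold change) without activated replicate 1 and at 3.12 without activated replicate 3. The fusion genes Mfn1, Mfn2 and Opa1 were not called.

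In the central carbon pathways some members changed and others did not. Of 33 genes of the TCA cycle, pyruvate entry and glutamine use 12 rose. Gls2, a glutaminase, had 0, 0.03 and 0 FPKM and then 11.2, 11.6 and 4.79 FPKM (6.31 ± 0.33). Both Pdk1 and Pdk2, kinases that close pyruvate dehydrogenase, fell, from 58.5 ± 7.17 to 26.3 ± 7.31 and from 7.28 ± 0.515 to 0.56 ± 0.05 FPKM, but without activated replicate 3 Pdk1 missed the 2-fold limit, at -0.93. Idh2, Ogdh and Sdha were not called. In glycolysis 12 of 18 rose and 1 fell: of these, Hk2, the inducible hexokinase, had 0.34, 0.23 and 0.56 FPKM and then 123, 120.1 and 123 FPKM (8.06 ± 0.20), while Hk1 was not called (58.2 ± 9.36 and 68.9 ± 21.9 FPKM).

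Most genes of lipid synthesis rose, while exporters of cholesterol fell. Of 29 genes of cholesterol synthesis and uptake 17 rose and 3 fell (median 1.83). Idi1, which isomerises isopentenyl diphosphate, had 1.59, 1.12 and 1.08 FPKM in naïve and 16.8, 27.3 and 24.6 FPKM in activated libraries (4.07 ± 0.19). Hmgcs1 and Cyp51, early and late enzymes of the pathway, rose from 17.8 ± 1.47 to 81.7 ± 5.83 and from 4.29 ± 0.742 to 49.2 ± 10.4 FPKM. The members that fell were the exporters Abcg1 (26.8 ± 2.06 to 1.77 ± 0.462 FPKM) and Abca1 (5.08 ± 0.606 to 0.96 ± 0.322 FPKM) and the reductase Tm7sf2 (-1.01 ± 0.19). Tm7sf2 missed the 2-fold limit without naïve replicate 1 (-0.98), activated replicate 2 (-0.95) or activated replicate 3 (-0.91), under median scaling (-0.93) and with a pseudocount of 1 (-0.80). The SREBP factors that drive the pathway were not called, with Srebf2 at 0.46 ± 0.13 and Srebf1 at -0.12 ± 0.13. Of 17 genes of fatty acid synthesis 13 rose and 2 fell. Acaca, acetyl-CoA carboxylase, rose from 5.43 ± 0.688 to 22.7 ± 2.64 FPKM and Acss2, which makes acetyl-CoA from acetate, fell from 35.3 ± 4.11 to 3.87 ± 0.409 FPKM. In fatty acid oxidation 5 of 27 fell (18.5%, against 23.7% of all mRNA) and 2 rose (7.41%, against 25%). The gatekeeper Cpt1a fell from 20.6 ± 7.21 to 5.34 ± 0.774 FPKM. Most steps of the spiral, such as Hadha (-0.10 ± 0.07) and Acadm (0.08 ± 0.09), were not called. In sphingolipid metabolism Sgms1, a sphingomyelin synthase, fell from 12.3 ± 0.768 to 1.88 ± 0.371 FPKM.

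The letters CCAAT are the box bound by NF-Y, which is known to act beside SREBP. They were in a promoter window of 17 of 19 matched genes of the cholesterol class, against 43.6% of matched mRNA. Counted by single window and not by gene, the share was 37.4% of all windows. The letters were also in a window of 14 of 17 matched chaperone genes of the endoplasmic reticulum and of 10 of 12 class I genes, which fell. The 80 bases before the start are printed for 3 enzymes of the cholesterol pathway, with matches on either strand in capitals.
Idi1: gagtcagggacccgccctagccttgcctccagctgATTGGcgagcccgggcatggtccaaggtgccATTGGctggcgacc
Hmgcs1: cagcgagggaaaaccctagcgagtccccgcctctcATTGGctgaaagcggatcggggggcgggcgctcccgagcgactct
Cyp51: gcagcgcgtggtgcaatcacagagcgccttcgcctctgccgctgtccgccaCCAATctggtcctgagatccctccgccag
The stretch of Idi1 lies at chr13:8885526-8885605 on the plus strand of GRCm38.p6 and ends at the start. The stretch of Hmgcs1 lies at chr13:119690271-119690350 on the plus strand of GRCm38.p6 and ends at the start. The stretch of Cyp51 lies at chr5:4104698-4104777 on the minus strand of GRCm38.p6 and ends at the start.

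Nucleotide and one-carbon enzymes were among the classes with the highest medians, 2.02 for purines and pyrimidines and 1.91 for serine and folate. Of 29 purine and pyrimidine genes 24 rose and 2 fell. Cad, the enzyme that opens pyrimidine synthesis, rose from 22.2 ± 0.468 to 132 ± 8.94 FPKM, Pfas of purine synthesis from 7.32 ± 0.473 to 59.4 ± 3.07 FPKM, and Rrm2, the small subunit of ribonucleotide reductase, from 0.86 ± 0.0755 to 235 ± 23.4 FPKM. Rrm2b, its p53-inducible paralog, fell from 10 ± 0.757 to 4.38 ± 0.807 FPKM, and of the CTP synthases Ctps rose from 13.2 ± 1.89 to 106 ± 19.3 FPKM and Ctps2 fell from 18.5 ± 0.903 to 4.02 ± 0.497 FPKM. Odc1 and Srm, which make putrescine and spermidine, rose from 22.6 ± 6.03 to 426 ± 27.1 and from 42.9 ± 4.08 to 506 ± 5.07 FPKM.

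Redox and iron genes rose in part. Of 33 thioredoxin and glutathione genes 13 rose and 4 fell. Txn1, thioredoxin, had 39.7, 46.2 and 28.1 FPKM in naïve and 258, 363 and 378 FPKM in activated libraries (3.14 ± 0.18), and Txnip, the protein that inhibits thioredoxin and glucose uptake, had 308, 333 and 292 FPKM and then 26.1, 20.8 and 21.8 FPKM (-3.76 ± 0.14). Cat, catalase, fell from 54.3 ± 3.74 to 17.8 ± 0.295 FPKM. Tfrc, the transferrin receptor, rose from 18.6 ± 3.18 to 224 ± 19.3 FPKM, and the ferritin genes Fth1 and Ftl1 were not called (-0.66 and 0.21).

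Genes known to respond to hypoxia varied among the activated libraries more than any other of the 100 classes, by the range of their median deviations. The rank depends on the measure. By the median SD of the members (log2) over the activated libraries, class II genes were higher, at 0.473 against 0.467 for the hypoxia genes. Of 25 genes outside glycolysis 11 rose and 3 fell. The median deviation of the class from the activated mean was 0.42 in replicate 1, 0.00 in replicate 2 and -0.37 in replicate 3 (log2), against values between 0.00 and 0.02 over all mRNA. Slc16a3, the lactate exporter MCT4, had 81.2, 33.8 and 3.1 FPKM in activated replicates 1, 2 and 3 and 0.72, 0.61 and 0.7 FPKM in the naïve ones (4.74 ± 0.99). Vegfa, the angiogenic factor, had 16.3, 5.49 and 3.14 FPKM, P4ha2, a collagen prolyl hydroxylase, 6.07, 2.52 and 0.38 FPKM, and Bnip3 21.9, 13.5 and 2.47 FPKM in that order. Of the 11 members that rose, 10 were highest in replicate 1 and 9 were lowest in replicate 3. Of all mRNA that rose these shares were 36.8% and 38.9%. Egln3, an oxygen sensor, had 95.6, 76.2 and 35.6 FPKM. The exceptions were Higd1a, a mitochondrial protein of hypoxic cells, with 33, 35.7 and 33.8 FPKM in activated replicates 1, 2 and 3, and Bhlhe40, a transcription factor, which was highest in replicate 1 but lowest in replicate 2, with 132, 92.2 and 93.3 FPKM. Every one of these activated values lay above the naïve values of the same gene. Ddit4, a stress-induced inhibitor of mTORC1 in the same list, fell from 55 ± 10.4 to 13.8 ± 8.81 FPKM. The log2 fold change of Slc16a3 was 3.75 without activated replicate 1 and 6.08 without activated replicate 3. Those of Bnip3 were 1.57 and 3.12 and those of P4ha2 2.44 and 4.28, against 2.21 and 3.26 with all libraries, and that of Vegfa was 4.46 without activated replicate 1, against 5.11.

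The order was not particular to the hypoxia genes, and 29 of the 100 classes had their medians in it, against 27 in the opposite order. ER chaperones and disulfide enzymes had medians of 0.26, 0.00 and -0.24, with 18 of 19 highest in replicate 1 and 19 of 19 lowest in replicate 3. Glycolysis had 0.27, 0.11 and -0.26, lysosomal hydrolases and membrane proteins 0.26, -0.06 and -0.17, costimulatory receptors 0.23, -0.02 and -0.17, and cholesterol synthesis and uptake 0.19, -0.07 and -0.14. The type I interferon-inducible genes had the opposite order, with -0.29, -0.17 and 0.41. Ifit3, an interferon-inducible gene, had 0.25, 0.51 and 2.75 FPKM in activated replicates 1, 2 and 3 and 21.2, 22 and 14.8 FPKM in naïve libraries. Its log2 fold change was -4.50 ± 0.64, -3.86 without activated replicate 1 and -5.38 without activated replicate 3. Oxygen, cell density and yield of the cultures were not given for each replicate, and their part in the spread was not tested.

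The core letters ACGTG of the hypoxia response element were searched on both strands and are contained in the E-box CACGTG. They were in a promoter window of 16 of 22 matched genes of the hypoxia class, against 30.2% of matched mRNA. Counted by single window and not by gene, the share was 19.7% of all windows. The hypoxia class was listed by known response to hypoxia, so its share of matches describes the list and not the response to activation. The letters were in a window of 10 of 18 matched glycolysis genes. For the transporters of lactate and glucose, whose mRNA are described with this class, 60 bases before the start are printed with the matches in capitals.
Slc16a3: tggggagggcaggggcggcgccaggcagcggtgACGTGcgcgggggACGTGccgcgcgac
Slc2a1: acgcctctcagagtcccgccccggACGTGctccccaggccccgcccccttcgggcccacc
The stretch of Slc16a3 lies at chr11:120949007-120949066 on the plus strand of GRCm38.p6 and ends at the start. The stretch of Slc2a1 lies at chr4:119108685-119108744 on the plus strand of GRCm38.p6 and ends at the start.
Slc2a1, the glucose transporter GLUT1, had 108, 54.4 and 40.6 FPKM in activated replicates 1, 2 and 3 and 16.5, 15.6 and 20.1 FPKM in naïve ones (1.84 ± 0.28).

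**Figure D3:**
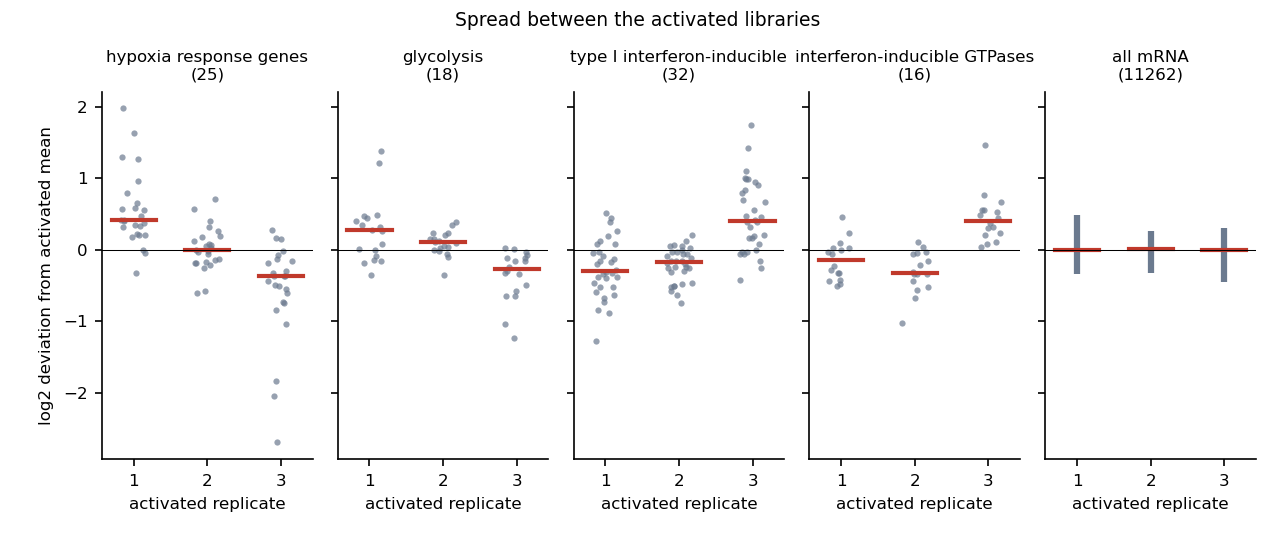
Deviation of each activated library from the mean of the 3 activated libraries (log2) for the members of 4 classes and for all mRNA, with the median as a red bar. For all mRNA the grey bars span the 5th to the 95th percentile. Hypoxia genes have medians of 0.42, 0.00 and -0.37 in replicates 1, 2 and 3, and type I interferon-inducible genes -0.29, -0.17 and 0.41.

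Lysosomal hydrolases and membrane proteins were lower, while the V-ATPase was not and most autophagy genes were not called. Of 41 lysosomal hydrolases and membrane proteins 21 fell and 2 rose (median -1.08). Ctsw, a cathepsin of cytotoxic cells, had 327, 311 and 318 FPKM in naïve and 26.6, 19.8 and 30 FPKM in activated libraries (-3.66 ± 0.13). Ctsd, the main aspartic protease of the lysosome, fell from 237 ± 6.12 to 73.5 ± 11.6 FPKM, and Psap, the precursor of saposins, from 237 ± 15.9 to 58.9 ± 6.15 FPKM. Ctsz rose from 33.4 ± 0.616 to 124 ± 29.2 FPKM, while Lamp1 and Ctsb were not called (-0.08 and 0.26). The V-ATPase that acidifies the lysosome fell in 2 of 17 subunits and rose in 2 (median -0.03). Of 29 autophagy genes 11 fell, among them Map1lc3b, the LC3 protein of the autophagosome, and the receptor Sqstm1 (58.5 ± 3.22 to 21 ± 0.95 and 101 ± 7.29 to 43 ± 6.37 FPKM), and 2 rose. Gabarapl1, a homolog of LC3, had 3.26, 4.38 and 3.32 FPKM and then 34.9, 36.5 and 31.8 FPKM (3.21 ± 0.12). Tfeb, the factor that drives lysosomal genes, fell from 8.08 ± 1.03 to 2.29 ± 0.229 FPKM.

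The cytoskeleton divided between actin and tubulin. Of 33 genes of actin, its regulators and myosin 14 fell and 1 rose, and of 14 tubulin and microtubule genes 9 rose. Coro1a, an actin regulator needed for naïve T cell survival, had 1264, 1446 and 1104 FPKM in naïve and 234, 291 and 352 FPKM in activated libraries (-2.13 ± 0.16). Tmsb4x, which sequesters actin monomers and is among the most abundant mRNA, fell from 3416 ± 956 to 898 ± 239 FPKM. The actin gene Actb and cofilin (Cfl1) were not called (-0.29 and 0.10), and neither were the measured subunits of the ARP2/3 complex. Tuba1b had 95, 104 and 87.9 FPKM and then 401, 491 and 513 FPKM (2.29 ± 0.11), and Stmn1, which destabilises microtubules and is raised in dividing cells, rose from 4.28 ± 0.745 to 161 ± 12 FPKM. Of 19 small GTPases of the cytoskeleton and their regulators 11 fell and 2 rose. Arhgdib, a GDP dissociation inhibitor of blood cells, fell from 1390.0 ± 138 to 266 ± 19.9 FPKM and Rac2 from 538 ± 54.1 to 169.6 ± 6.27 FPKM, while Cdc42, Rac1 and Rhoa were not called.

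Survival and death genes as a list rose in 28.2% and fell in 20.5% of cases, close to the 25% and 23.7% of all mRNA. The pro-survival proteins that changed all rose. Of 6 pro-survival BCL2 proteins 4 rose and 0 fell (median 2.32), of 9 BH3-only proteins and effectors 1 rose and 2 fell, and of 24 death receptors, caspases and their inhibitors 6 rose and 6 fell. Bcl2l1, which encodes BCL-XL, had 6.37, 6.02 and 6.85 FPKM in naïve and 108, 116 and 146 FPKM in activated libraries (4.23 ± 0.18). The A1 genes Bcl2a1b and Bcl2a1d, near copies of each other, and Bcl2l2, which encodes BCL-W, rose too, the former by 3.04 ± 0.32 and 4.14 ± 0.45 and the last from 1.67 ± 0.153 to 5.26 ± 0.39 FPKM. Bcl2 had 15.4, 14 and 13.6 FPKM and 16.9, 14.4 and 10.8 FPKM, its libraries overlapped and it was not called (-0.05 ± 0.14), and Mcl1 was not called either (-0.37 ± 0.09). Of the BH3-only genes that start apoptosis, Bbc3, which encodes PUMA, and Bmf fell from 13.7 ± 1.1 to 0.843 ± 0.265 and from 5.92 ± 1.21 to 0.283 ± 0.0851 FPKM, while Bcl2l11, which encodes BIM, was not called (0.27 ± 0.10). Gsdmd, the pore former of pyroptosis, fell from 47.3 ± 2.43 to 7.42 ± 1.87 FPKM and Mlkl, that of necroptosis, rose from 0.183 ± 0.0551 to 7.73 ± 2.42 FPKM.

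Genes of the cytotoxic granule moved both ways at 24 h. Of 16 genes 5 rose and 7 fell. Gzmb, which encodes granzyme B, had 0.11, 0.53 and 0.58 FPKM in naïve and 4049, 2904 and 2488 FPKM in activated libraries (12.75 ± 0.40). Prf1, which encodes perforin, had 42.1, 43.2 and 45.4 FPKM and then 27.1, 18.1 and 9.02 FPKM (-1.40 ± 0.40), so that every activated library lay below every naïve one, but it missed the 2-fold limit without activated replicate 3, at -0.97. Nkg7, a granule membrane protein, fell from 429 ± 12.4 to 172 ± 20.4 FPKM, and Unc13d and Lyst, which serve granule release, from 60.5 ± 1.48 to 15.6 ± 1.35 and from 23.9 ± 3.67 to 3.47 ± 0.104 FPKM. Serpinb9, which shields the cell from its own granzyme B, rose from 9.93 ± 1.34 to 106 ± 26.2 FPKM.

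**Figure D4:**
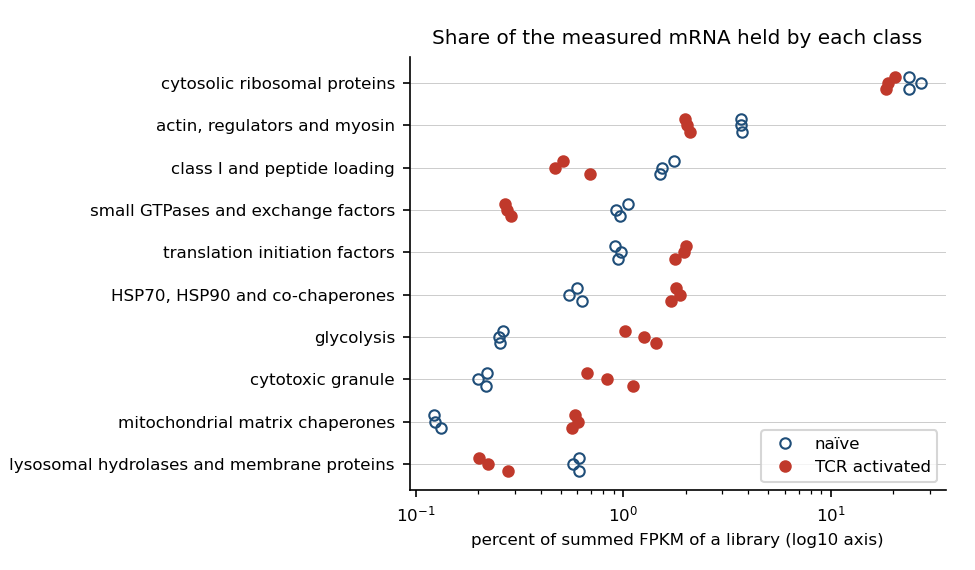
Share of the summed FPKM of each library held by 10 gene classes in the 3 naïve (open circles) and 3 activated libraries (filled circles), on a log10 axis. Cytosolic ribosomal proteins hold 23.7% to 27.3% in naïve and 18.4% to 20.4% in activated libraries. Class I presentation and actin genes are lower, and glycolysis and cytosolic chaperones higher, in every activated library.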

How the data were processed

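RNA was sequenced from pooled lymph node CD8+ T cells, naïve or after 24 h of TCR activation. The authors aligned reads with STAR 2.5.2b to mm10, counted them per gene with Subread 1.5.1, filtered genes and computed TMM factors with edgeR, and deposited FPKM rounded to 2 decimals. The authors' voom test needs counts, so log2(FPKM + 0.1) of the 9 libraries of the table was fitted with limma 3.58.1 (R 4.3.3) in place of it, with a variance prior that follows intensity and Benjamini-Hochberg adjustment over 11262 mRNA, and the script was tested on simulated data. No filter was added, and 0 columns of values lacked a sample. The 3 libraries with a PI3Kδ inhibitor entered only the estimate of the spread, and the other libraries of the series were not used here.

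The 40 gene lists with 100 roles and the members named were chosen with earlier results of these data known. By rule the 10 largest rises and falls (mean of at least 10 FPKM), the largest rise, largest fall (at least 5 FPKM) and highest level of each role, and roles of 12 members or fewer were candidates for naming. All other members named were picked after their values were seen. Some genes are not reported here. Of 312 genes named, 31 share exon sequence with another gene on the same strand and their reads are uncertain. For 76 an exon overlaps a gene on the other strand, and 100 have an overlap of either kind. Whether reads were counted by strand is not stated. A further limit is that depth was estimated from the spacing of low values and not read from the files.

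Pools of 3 mice were split between conditions, so a shared replicate number was taken to mean a shared pool. Deviations of same-numbered libraries had a mean correlation of -0.036 across 10078 mRNA (range -0.184 to 0.216), against 0.018 for other numbers. The replicates are pools from separate mice. The p-values set the difference between groups against the spread between replicates within a group, estimated over the 9 libraries. The main fit did not pair libraries of a shared pool. Promoter windows were matched by gene ID, or by symbol where the ID had no window, for 8405 mRNA. Pseudocounts, scalings, filters, fold limits, a replicate block and the omission of each library were tried as alternatives.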

Additional observations from a re-analysis of the deposited data

How the results depend on the processing

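With 5489 mRNA called changed, 2817 higher and 2672 lower, the fold limit set the counts most. Without it 9096 changed (4609 higher, 4487 lower), at 4-fold 2362 (1245 and 1117), and over all gene lists the called members went from 1170 to 1828 and 476. A pseudocount of 1 gave 4419 and of 0.01 gave 5610 changed mRNA, a mean of at least 1 FPKM 4721, the 6 libraries alone 5492 and no intensity trend 5487. Leaving out 1 library gave 5431 to 5588 changed mRNA, 2785 to 2857 higher, 2646 to 2744 lower and 1153 to 1194 called list members. With the replicate block for the shared pools, 5495 mRNA changed, 5489 of them also without it, and no call of a named gene was lost. Median scaling raised the median log2 fold change of all mRNA from 0.005 to 0.087 (54.5% of calls higher against 51.3%), turning the sign of the median of 5 of 100 roles, and scaling to summed FPKM lowered it to -0.061 (48.7%), turning none. The difference in the share of cytosolic ribosomal proteins, activated minus naïve, was -5.75 percentage points and between -6.37 and -4.57 with a library left out. Of 4366 values of named genes, 4310 kept their sign and side of the threshold, 32 lost and 5 gained a call and 19 turned sign. All that turned sign belonged to uncalled genes near 0. Their log2 fold changes were Bcl2 0.03, Lamp1 0.00 under median scaling and Btla -0.04, Chd4 -0.03, Egr1 -0.05, Rptor -0.01 under scaling to summed FPKM. With a library left out they ranged as follows: Bcl2 -0.20 to 0.12, Btla -0.02 to 0.11, Cd69 -0.57 to 0.01, Chd4 -0.05 to 0.11, Egr1 -0.15 to 0.16, Hk1 -0.02 to 0.45, Id2 -0.14 to 0.29, Junb -0.37 to 0.12, Lars2 -0.54 to 0.14. Low FPKM limit what can be seen, since 1 read on a gene of 2 kb is worth 0.035 to 0.045 FPKM.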

Other observations

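Several of the 10 largest rises and 10 largest falls over all mRNA lay outside the classes described. Crabp2, a carrier protein for retinoic acid, had 0.09, 0 and 0.09 FPKM in the naïve and 195, 161 and 86.3 FPKM in the activated libraries. Hsd11b1, the enzyme that makes active glucocorticoid from its inert form, went the other way, with 107, 106 and 91.4 FPKM and then 0.29, 0.33 and 0.12 FPKM (-8.25 ± 0.24). Scg5, a secretory chaperone better known from neuroendocrine cells, had 32.3, 38.7 and 31.9 FPKM and then 0.06, 0 and 0.07 FPKM. Slc16a5, a transporter of the monocarboxylate family to which the lactate exporter Slc16a3 belongs, had 34.7, 39.1 and 40 FPKM and then 0.12, 0.25 and 0.21 FPKM. Baiap3, a protein of vesicle trafficking, had 18.6, 16.4 and 16.9 FPKM and then 0.05, 0.01 and 0.06 FPKM. Pydc3, a PYHIN gene with close paralogs, had 118, 107 and 138 FPKM and then 0.16, 0.67 and 1.54 FPKM (log2 fold change -7.45 ± 0.57, -6.74 without activated replicate 1 and -8.07 without activated replicate 3), and Gm11346, which has no described role, had 61.1, 64.2 and 58.4 FPKM and then 0.13, 0.12 and 0 FPKM. For none of these genes did the naïve and activated libraries overlap. Of the secreted factors among the 10 largest rises, Lif, a cytokine of the IL-6 family, had 142, 121 and 97.2 FPKM in the activated libraries, the chemokine Xcl1 178, 267 and 265 FPKM (log2 fold change 10.48, and 11.19 without naïve replicate 3) and the chemokine Ccl3 293, 312 and 371 FPKM, each with less than 0.4 FPKM in every naïve library.

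Further classes of metabolism, RNA, chromatin and the proteasome were measured. Of 27 genes of phospholipid synthesis 9 rose and 2 fell, led by Agpat5, an acyltransferase of phosphatidic acid synthesis (5.43 ± 0.837 to 24.2 ± 0.85 FPKM), and by the phosphatidate phosphatase Lpin1 (12.9 ± 0.769 to 2.07 ± 0.979 FPKM). Of 7 pentose phosphate genes 3 rose and 0 fell, and Tkt, transketolase, rose from 79.5 ± 5.83 to 274 ± 41.8 FPKM. Enzymes that modify tRNA rose in 12 of 28 cases. Of 17 iron and heme genes 5 rose, while Ppox of heme synthesis fell from 25.4 ± 1.85 to 11.1 ± 1.08 FPKM. Among Polycomb and histone methylation genes 11 of 24 rose. Hmgb2, a chromatin protein of proliferating cells, rose from 14.7 ± 1.75 to 146 ± 16.2 FPKM in a class of 24 remodellers and architectural proteins of which 8 rose and 3 fell. Proteasome assembly factors and activators rose in 5 of 7 cases.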
